A study of Mus musculus with 2 samples.

Results

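The let-7 and miR-98 family was examined in fibro-adipogenic progenitors (FAPs), mesenchymal cells of skeletal muscle that can become adipocytes or fibroblasts. Members were taken by name: every listed arm of let-7a, let-7b, let-7c, let-7d, let-7e, let-7f, let-7g, let-7i and miR-98, which gave 20 of the 628 listed miRNAs, 9 of them 5p arms and 11 of them 3p arms. The cells were Sca1+ FAPs sorted from the muscle of wild-type C57Bl/6 mice, and the number of animals behind them was not stated in the labels. The growth medium held FGF at 5 ng/ml beside 10% HS and 20% FBS, and at near 80% confluence 1 culture received basal medium (BM, with 10% HS) and 1 adipogenic medium (ADM, of a composition not stated in the labels) for 24 h. Each culture gave 1 small RNA library, so differences are between 2 libraries, with no replicate check and no p-value. The question is how early exposure to adipogenic medium relates to the miRNA content of FAPs.

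let-7 miRNAs repress mRNAs that pair with the seed near the 5p arm's 5′ end. They accumulate as cells leave the progenitor state, and the RNA-binding protein LIN28 blocks their maturation by binding the loop of the precursor. Known targets include Hmga2, a chromatin factor of proliferating mesenchymal cells, and let-7 has been reported to rise during differentiation of mouse preadipocyte lines and to limit their expansion through Hmga2.

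The 9 mature 5p sequences are shown because the family is defined by them and because its members differ by very few bases. Sequences are from RefSeq (GRCm38.p6), 5′ to 3′, with the seed (bases 2 to 8) in capitals.
mmu-let-7a-5p: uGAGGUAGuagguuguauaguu
mmu-let-7b-5p: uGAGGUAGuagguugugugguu
mmu-let-7c-5p: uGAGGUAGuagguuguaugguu
mmu-let-7d-5p: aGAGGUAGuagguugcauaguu
mmu-let-7e-5p: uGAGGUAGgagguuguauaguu
mmu-let-7f-5p: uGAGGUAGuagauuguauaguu
mmu-let-7g-5p: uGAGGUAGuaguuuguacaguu
mmu-let-7i-5p: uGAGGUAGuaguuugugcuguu
mmu-miR-98-5p: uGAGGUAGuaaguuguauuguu

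All 9 matched a RefSeq entry and all 9 shared the seed, so they differ only outside it. Counting positions from 1 at the 5′ end, let-7a-5p differs from let-7c-5p by A19G, from let-7e-5p by U9G and from let-7f-5p by G12A, and let-7b-5p differs from let-7c-5p by G17A. These 4 of the 36 pairs are 1 base apart and involve 5 members. The other 4 members, let-7d-5p, let-7g-5p, let-7i-5p and miR-98-5p, lie at least 2 bases from every other member. The labels do not say how reads with a mismatch were assigned, so reads within the 1-base pairs may have been exchanged.

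None of the 11 3p arms carried the let-7 seed, and they held 8 different seeds among them. Of the 516 listed miRNAs that matched a RefSeq sequence, 1 further entry carried the let-7 seed, the shorter let-7k, with 1 read in BM and 2 in ADM. let-7j, named here after its values were seen, has the family name but the seed GAGGUAU, and had 4 and 3 reads. Neither adds a measurable amount to the family.

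Levels were deposited as percents of the reads taken as 100% in each library. Every value was a whole multiple of the smallest one, which was taken as 1 read and gave denominators of 755193 reads in BM and 790617 in ADM. RPM is the percent value times 10000, intervals in brackets are 95% counting intervals, and they cover counting error only. Markers of haematopoietic cells came to 1 read in BM and 4 in ADM over 2 listed markers, miR-451a and miR-150-5p. The miR-142 arms and miR-223-3p, also sought, were not among the listed miRNAs. Markers of epithelium came to 3 and 1 over 3, with miR-200a-3p and miR-200c-3p not listed. Endothelial markers took 0.0117% of BM and 0.0257% of ADM reads over 2 markers, mesenchymal markers 7.28% and 8.46% over 5. Of these 5, miR-143-3p (2.86% and 5.35%) and miR-145a-5p (0.0658% and 0.106%) had higher shares in ADM. miR-199a-3p (3.17% and 2.33%), miR-199a-5p (0.966% and 0.50%) and miR-214-3p (0.214% and 0.175%) had lower ones. Of the muscle fibre markers, miR-133a-3p numbered 2266 BM and 231 ADM reads, miR-1a-3p 4 and 2, and miR-206-3p 8 and 1. Together they took 0.302% of BM and 0.0296% of ADM reads, nearly all from miR-133a-3p. That is a difference of -0.272 percentage points (ADM minus BM), and its part in the let-7 results was not tested. The mRNA markers that define FAPs were not measured, and in bulk RNA a change in the share of a cell type and a change in RNA per cell cannot be told apart.

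The family was abundant in both libraries and took a larger share of the ADM library. The 9 5p arms summed to 82567 BM reads and 112337 ADM reads. These are 10.9% (10.9 to 11.0%) and 14.2% (14.1 to 14.3%) of the libraries. The share was thus higher in ADM by 3.28 percentage points, or 1.30-fold (1.29 to 1.31). let-7f-5p and let-7c-5p made up 2.43 of these points. Without both, the share of the other 7 members was still 1.19-fold higher (1.17 to 1.20).

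let-7f-5p was the most abundant member, at rank 7 of all listed miRNAs in BM and rank 5 in ADM, with a share of 3.73% (3.69 to 3.78%) in BM and 4.79% (4.75 to 4.84%) in ADM. It was followed by let-7c-5p with 2.67% (2.63 to 2.71%) and 4.04% (3.997 to 4.08%). let-7i-5p had 2.07% (2.03 to 2.10%) and 2.003% (1.97 to 2.03%). let-7a-5p, the sequence conserved from worms to humans, had 0.965% (0.943 to 0.987%) and 1.30% (1.28 to 1.33%). These 4 kept the same order in both libraries, and their intervals did not overlap within a library.

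The remaining members were rarer, and their order differed between the libraries. let-7b-5p had 0.447% (0.432 to 0.462%) in BM and 0.626% (0.608 to 0.643%) in ADM. let-7d-5p had 0.429% (0.415 to 0.444%) and 0.483% (0.467 to 0.498%). let-7e-5p had 0.311% (0.299 to 0.324%) and 0.336% (0.323 to 0.349%). In BM, let-7b-5p and let-7d-5p could not be ordered beyond counting error.

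let-7g-5p had 0.252% (0.241 to 0.263%) in BM and 0.484% (0.468 to 0.499%) in ADM, which placed it below let-7e-5p in BM and level with let-7d-5p in ADM. miR-98-5p was the rarest 5p member in both, with 0.0604% (0.0550 to 0.0662%) and 0.138% (0.130 to 0.147%). The most abundant 5p member exceeded the rarest by 61.8-fold in BM and by 34.7-fold in ADM. Levels of different miRNAs are shares of reads, and capture by the library kit was not calibrated between sequences.

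**Figure D1:**
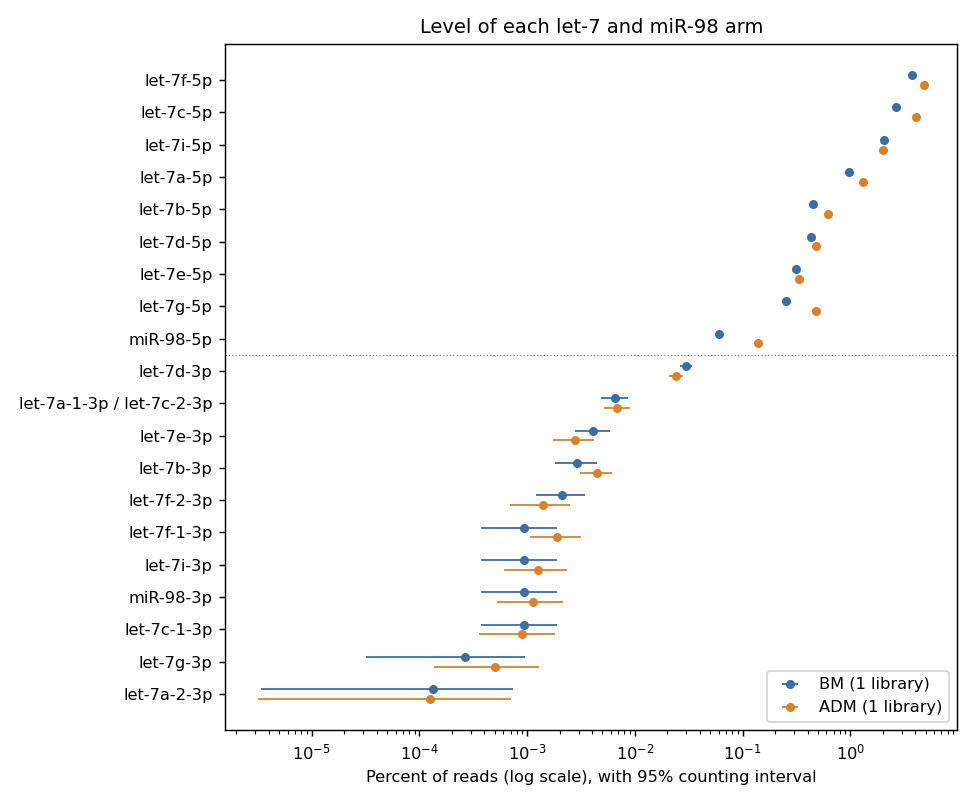
Percent of reads (log axis) for each of the 20 family arms in the BM and ADM libraries, with 95% counting intervals; 5p arms are above the dotted line. The 9 5p arms lie above all 11 3p arms, and 8 of the 9 lie further right in ADM, with let-7i-5p as the exception.

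Between the libraries, miR-98-5p and let-7g-5p differed most among the 5p arms and let-7i-5p least. Differences are given as folds of the percent values, and as log2 ratios of RPM values (ADM over BM) with 1 RPM added to each, a scale that shrinks the difference of rare arms. A member was called when this ratio was at least 2-fold and the mean of both libraries at least 10 RPM. Of the 20 arms, 17 passed the minimum: all 9 5p arms and 8 of the 11 3p arms. Of the 17, 1 was called higher in ADM, where 10.7% of the 337 listed miRNAs above the minimum were called higher. None of them (0 of 17) was called lower, where 20.5% of the 337 were, and 16 were less than 2-fold apart on this scale. Among these 16, let-7f-1-3p, with 7 and 15 reads, was 2.05-fold higher (0.786 to 5.93) without the added RPM.

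The called member was miR-98-5p, the X-linked relative of let-7, with 456 BM reads and 1094 ADM reads, 2.29-fold higher (2.05 to 2.56; log2 ratio 1.195). The authors' deposited table gives the same ratio of 2.29. let-7g-5p, which is encoded alone in an intron of Wdr82, had 1901 and 3823 reads and was 1.92-fold higher (1.82 to 2.03; log2 ratio 0.94), just under the threshold. let-7c-5p had 20166 and 31947 reads and was 1.51-fold higher (1.49 to 1.54). Both miR-98-5p and let-7g-5p are at least 2 bases from every other member, and with a median of ratios scaling, or with miR-22-3p and miR-21a-5p left out of the denominators, let-7g-5p was called too.

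An intermediate group held let-7b-5p, let-7a-5p and let-7f-5p, which include 3 of the 5 members that are 1 base from another. let-7b-5p, with 3372 and 4946 reads, was 1.40-fold higher in ADM (1.34 to 1.46). let-7a-5p, with 7287 and 10310 reads, was 1.35-fold higher (1.31 to 1.39). let-7f-5p, with 28198 and 37910 reads, was 1.28-fold higher (1.26 to 1.30).

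let-7d-5p and let-7e-5p hardly differed, and let-7i-5p was the only 5p arm with a ratio below 1. let-7d-5p had 3241 and 3815 reads and was 1.12-fold higher (1.07 to 1.18). let-7e-5p had 2351 and 2656 reads and was 1.08-fold higher (1.02 to 1.14). let-7i-5p had 15595 and 15836 reads and a ratio of 0.970 (0.949 to 0.992; log2 ratio -0.04), which turned to 0.02 with the median of ratios scaling and to 0.04 when miR-22-3p and miR-21a-5p were left out of the denominators.

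Across the 17 arms above the minimum the median log2 ratio was 0.36, against -0.02 for all 337 miRNAs, whose quartiles were -0.81 and 0.498. Ratios were above 0 for 13 of the 17, where 48.7% of the 337 were. Among the 5p arms 8 had a counting interval above 1 and 1, let-7i-5p, had one below 1, where 29.4% and 30.9% of the 337 did. With a trimmed mean of M values scaling, the intervals of let-7d-5p and let-7e-5p would no longer lie above 1. Members of 1 family share a seed and often a transcript, so these counts are not independent observations, and such intervals narrow as reads rise.

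**Figure D2:**
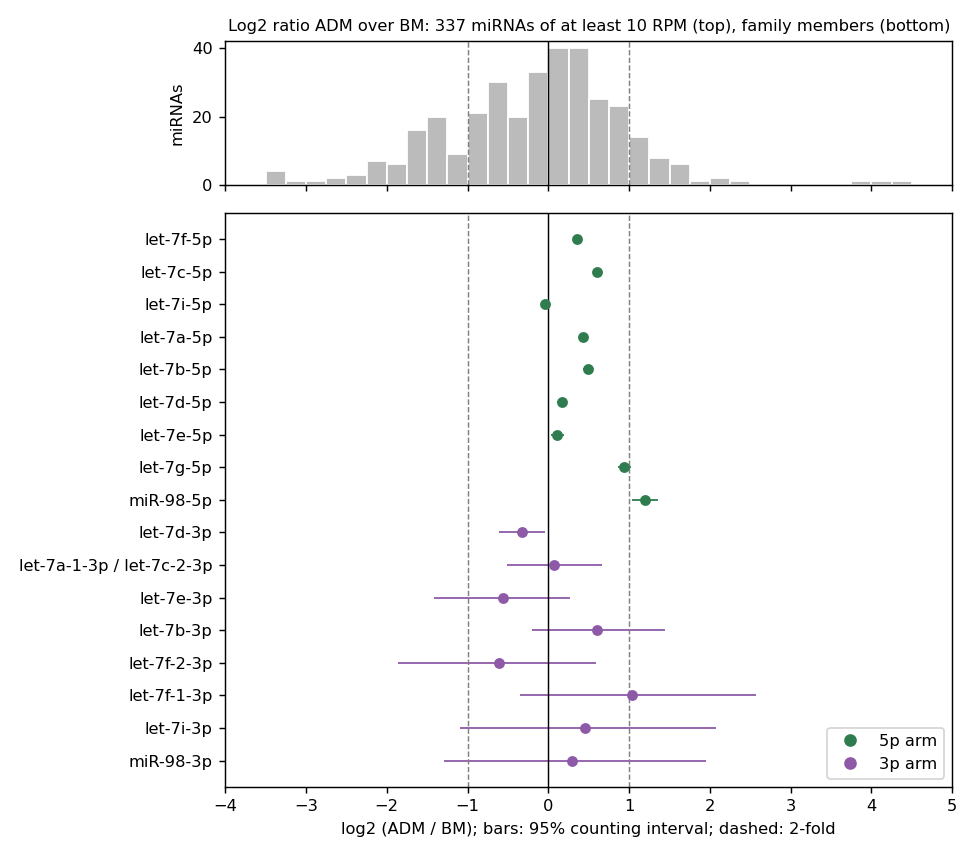
Top, histogram of log2 ratios (ADM over BM, with 1 RPM added) for the 337 miRNAs of at least 10 RPM; bottom, log2 fold with 95% counting intervals for the 17 family arms above that minimum. Without rescaling of the libraries, miR-98-5p is the only arm whose whole interval lies beyond the dashed 2-fold line. The intervals of the 3p arms are wide.

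Because each share depends on all other miRNAs in a library, the make-up of the family's own 5p reads was also compared, which is free of library scaling. let-7f-5p held 34.2% of the family's 5p reads in BM (33.8 to 34.5%) and 33.7% in ADM (33.5 to 34.0%), a share whose fold of 0.988 (0.973 to 1.004) did not differ beyond counting error. let-7c-5p went from 24.4% (24.1 to 24.7%) in BM to 28.4% (28.2 to 28.7%) in ADM. let-7i-5p went the other way, from 18.9% (18.6 to 19.2%) to 14.1% (13.9 to 14.3%), the largest shift in percentage points of any member (-4.79).

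The members rarest in BM, miR-98-5p and let-7g-5p, gained the most in relative terms. miR-98-5p held 0.552% of the family's 5p reads in BM and 0.974% in ADM, a share 1.76-fold larger (1.58 to 1.97). The share of let-7g-5p was 2.30% and 3.40%, or 1.48-fold larger (1.40 to 1.56). let-7d-5p and let-7e-5p held smaller shares in ADM, with folds of 0.865 (0.825 to 0.907) and 0.830 (0.785 to 0.878). Those of let-7a-5p and let-7b-5p were 1.04 (1.01 to 1.07) and 1.08 (1.03 to 1.13). All of these are folds of shares within the family, not of levels.

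**Figure D3:**
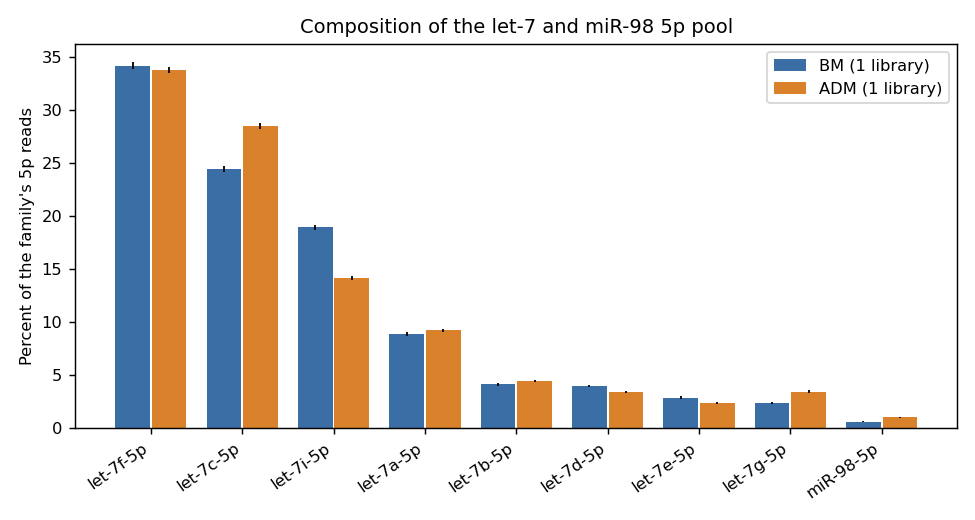
Each 5p member as a percent of all 5p reads of the family in the BM and ADM libraries, with 95% counting intervals. let-7c-5p holds 24.4% in BM and 28.4% in ADM, let-7i-5p 18.9% and 14.1%, and let-7f-5p 34.2% and 33.7%.

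The 9 mature forms come from 12 hairpins at 8 loci on 7 chromosomes (positions from GENCODE M21 on GRCm38, of which mm10 is another name). On chromosome 13, let-7a-1, let-7f-1 and let-7d lie within 2261 bases in exons of the lincRNA 6720427I07Rik. let-7c-2 and let-7b share exons of Lncppara on chromosome 15, within 801 bases. let-7f-2 and miR-98 lie 976 bases from end to end in an intron of Huwe1, a ubiquitin ligase gene, on chromosome X. let-7i stands alone on chromosome 10, in an exon of the pseudogene D630033A02Rik. The other 3 clustered hairpins, let-7a-2, let-7c-1 and let-7e, lie next to hairpins of the miR-99, miR-100 and miR-125 families. Since let-7a-5p, let-7c-5p and let-7f-5p each come from a pair of hairpins, their 5p reads cannot be divided between loci.

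Members that share a locus were compared with each other. miR-98-5p was 1.78-fold (1.60 to 1.99) higher in ADM relative to let-7f-5p, whose reads come from the same Huwe1 intron and from chromosome 13. The arms specific to that intron were rare, with 7 and 9 reads of miR-98-3p and 16 and 11 of let-7f-2-3p, a fold of 1.87 (0.535 to 6.53) for the first relative to the second. On chromosome 13, let-7d-5p relative to let-7f-5p had a fold of 0.876 (0.833 to 0.920). The arms specific to that locus, let-7d-3p and let-7f-1-3p, had a relative fold of 0.391 (0.156 to 0.978), which rests on 7 and 15 reads of let-7f-1-3p. let-7b-5p relative to let-7c-5p, which is also made on chromosome 16, had a fold of 0.926 (0.883 to 0.971).

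let-7 hairpins also lie beside hairpins of other families. miR-99, miR-100 and miR-125 have other seeds and are known in vertebrates as companions of let-7 in conserved clusters. Of the 11 listed arms of miR-99a, miR-100, miR-125b, miR-99b and miR-125a, 10 passed the minimum, of which 3 were called lower, 0 higher and 7 neither, where 20.5% of the 337 miRNAs above the minimum were called lower and 10.7% higher. All 11 log2 ratios were below 0, where 48.7% of the 337 were above 0. The median of the 10 was -0.81, at the lower quartile of the 337. Their 5 5p arms together took 12.4% (12.3 to 12.4%) of the BM library and 5.71% (5.65 to 5.76%) of the ADM library, while the let-7 and miR-98 5p arms went from 10.9% to 14.2%.

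The cluster on chromosome 17 allows the closest comparison, since let-7e, miR-99b and miR-125a each have 1 hairpin and all lie within 692 bases of Spaca6 (miR-99b and let-7e in an intron, miR-125a overlapping an exon). The let-7e hairpin is at chr17:17830352-17830444 on the plus strand. The partners' mature sequences, with seeds in capitals, show that neither can be confused with let-7e-5p.
mmu-miR-99b-5p: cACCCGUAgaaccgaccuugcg
mmu-miR-125a-5p: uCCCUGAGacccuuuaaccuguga
miR-99b-5p numbered 42870 reads (BM) and 23708 (ADM), 1.89-fold lower (1.86 to 1.92), and miR-125a-5p 15649 and 7823, 2.09-fold lower (2.04 to 2.15), while let-7e-5p had 2351 and 2656. For each let-7e-5p read there were 18.2 reads of miR-99b-5p in BM and 8.93 in ADM. Relative to miR-99b-5p, let-7e-5p was thus 2.04-fold higher in ADM (1.93 to 2.16), and relative to miR-125a-5p 2.26-fold (2.12 to 2.40), values that no library scaling can change. The fold of miR-99b-5p relative to miR-125a-5p was 1.11 (1.07 to 1.14).

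The rare 3p arms of the same hairpins gave another picture. Reads in BM and ADM were 31 and 22 for let-7e-3p, 109 and 74 for miR-99b-3p, and 66 and 48 for miR-125a-3p. These values are 1.48-fold (0.827 to 2.67), 1.54-fold (1.14 to 2.10) and 1.44-fold (0.978 to 2.13) lower in ADM, with an interval above 1 for miR-99b-3p only. Relative to miR-99b-3p, let-7e-3p had a fold of 1.05 (0.562 to 1.95), and relative to miR-125a-3p 0.976 (0.504 to 1.89). The log2 shift of the 5p arms exceeded that of the 3p arms by 0.97 (0.07 to 1.87) against miR-99b and by 1.21 (0.25 to 2.17) against miR-125a, a comparison chosen after the values were seen.

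At the other shared loci the mature 5p forms also have copies elsewhere. On chromosome 9, let-7a-2 lies between miR-100 and miR-125b-1, in introns of the noncoding genes 3110039I08Rik and Gm49317. miR-100-5p numbered 10691 reads (BM) and 3824 (ADM), and let-7a-5p was 3.96-fold higher relative to it in ADM (3.77 to 4.15). The arm specific to that locus, let-7a-2-3p, had 1 read in each library, so its own output was not measurable at this depth. miR-125b-1-3p, from the same locus, had 2092 and 1178 reads.

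On chromosome 16, let-7c-1 lies next to miR-99a in an intron of Mir99ahg, with miR-125b-2 further along. let-7c-5p was 2.44-fold higher in ADM relative to miR-99a-5p (2.27 to 2.64), which had 1788 and 1159 reads. let-7c-1-3p, the arm specific to this hairpin, had 7 reads in each library, next to 32 and 20 of miR-99a-3p and 279 and 203 of miR-125b-2-3p. Relative to miR-99a-3p its fold was 1.60 (0.488 to 5.25), so a difference was not detectable at this depth.

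**Figure D4:**
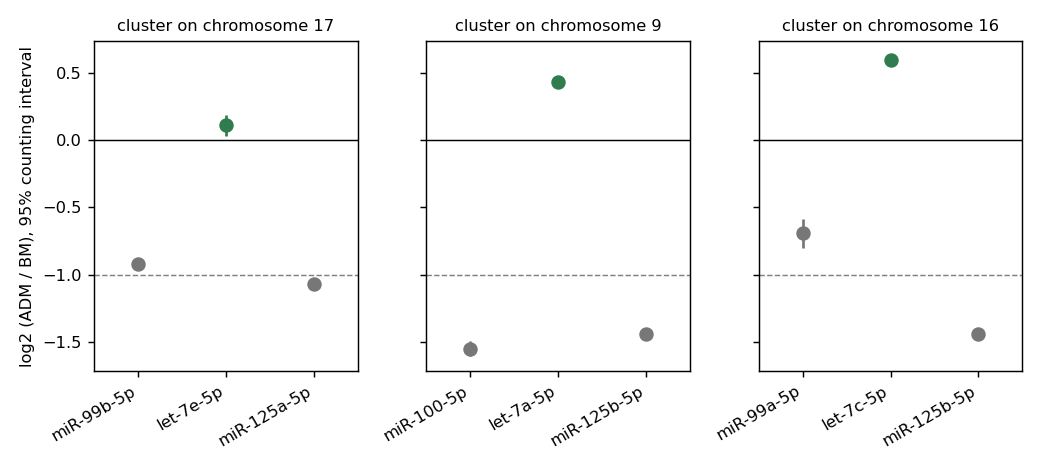
Log2 fold (ADM over BM) with 95% counting intervals of the 5p arms in the 3 clusters that hold let-7 next to miR-99, miR-100 or miR-125 hairpins; the dashed line marks 2-fold lower. The let-7 arm (green) lies above 0 in each panel and its neighbours (grey) lie below; let-7a-5p, let-7c-5p and miR-125b-5p are also made from other loci.

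The 3p arms, which are mostly degraded when the 5p strand is loaded, were rare. They summed to 376 BM reads and 358 ADM reads, with a fold of 0.909 (0.785 to 1.05), so the higher family share in ADM was not seen in them beyond counting error. let-7d-3p was the most abundant, with 227 and 190 reads, so the sum mostly reflects this arm. It was the only 3p arm whose interval excluded 1, with a fold of 0.7995 (0.656 to 0.974). Of the 8 3p arms above the minimum, 5 had log2 ratios above 0, where 48.7% of the 337 miRNAs above it did. The row shared by let-7a-1-3p and let-7c-2-3p, identical in sequence, had 49 and 54 reads. let-7b-3p had 22 and 35, let-7f-1-3p 7 and 15, and let-7i-3p 7 and 10. let-7g-3p, with 2 and 4 reads, was below the minimum, as were let-7c-1-3p and let-7a-2-3p.

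Comparing the arms of 1 hairpin is again free of library scaling. With let-7a pooled with let-7c, and both let-7f hairpins pooled, 8 pairs of arms could be formed, 7 of them above the minimum. The 5p arm outnumbered the 3p arm in all 8, from 14.3 reads of 5p per 3p read for let-7d in BM to 2228 for let-7i in BM. In 5 of the 7 the 5p arm was relatively higher in ADM, with a median log2 difference of 0.49, the value of let-7d. The share of all listed hairpins that did so was not computed. The partner hairpins miR-99b (-0.30, -0.72 to 0.13) and miR-125a (-0.54, -1.08 to -0.003) went the other way. let-7d had 14.3 reads of 5p per 3p read in BM and 20.1 in ADM, a log2 difference of 0.49 (0.21 to 0.78). It was the only family pair whose interval excluded 0. let-7e had 75.8 and 120.7 (0.67, -0.12 to 1.46), miR-98 65.1 and 121.6 (0.90, -0.53 to 2.33) and let-7i 2228 and 1584 (-0.49, -1.89 to 0.90).

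**Figure D5:**
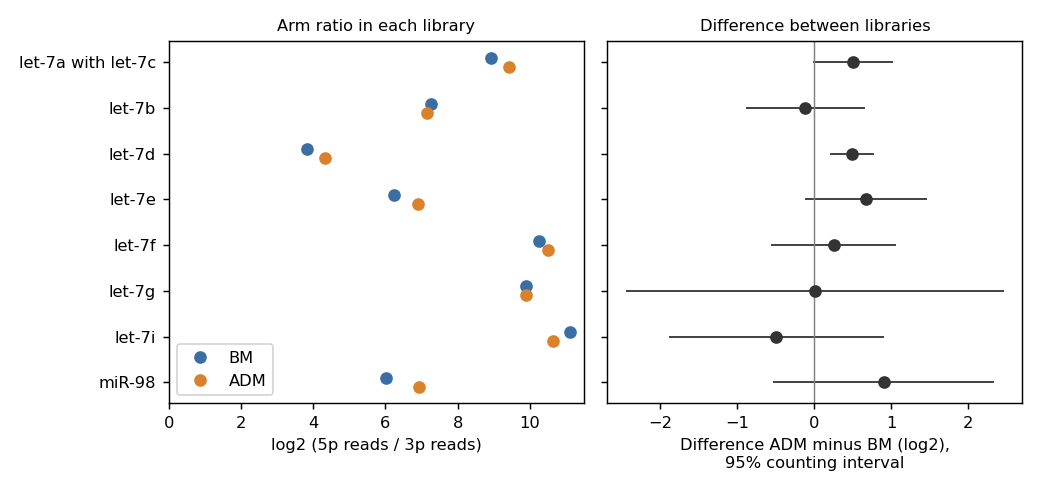
Left, log2 of 5p reads per 3p read in the BM and ADM libraries for 8 pairs of arms; right, the difference between the libraries with 95% counting intervals. let-7d is the only pair whose interval lies wholly above 0, and the intervals of let-7g, let-7i and miR-98 are wide because their 3p arms had at most 10 reads.

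The hairpins themselves share a feature that the naming rule did not use. The motif GGAG, which LIN28 is known to bind in let-7 precursors, was searched on the sense strand between the 5p and 3p mature arms. It was found in 9 of the 12 family hairpins, and in 8.22% of the 645 mouse hairpins of the RefSeq table with both arms placed, the family included. The loops of the family, at 23 to 36 bases, are longer than the median of 16 bases over the 645, so they offer more room for a match. let-7c-2, let-7b and miR-98 had no match in this window. The hairpins of the 2 5p members with the highest ratios are shown, with GGAG in capitals where it occurs.
Mirlet7g (chr9:106178840-106178927, plus strand): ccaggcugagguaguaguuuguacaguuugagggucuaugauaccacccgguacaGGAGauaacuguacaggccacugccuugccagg
Mir98 (chrX:151913214-151913321, plus strand): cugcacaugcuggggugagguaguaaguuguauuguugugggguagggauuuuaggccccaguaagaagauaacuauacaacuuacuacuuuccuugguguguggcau
The 5p folds (ADM over BM) of the hairpins without a match were 2.29 for miR-98-5p and 1.40 for let-7b-5p. let-7c-5p, made from let-7c-2 without a match and from let-7c-1 with one, had 1.51. Members made only from hairpins with a match had 1.92 for let-7g-5p, 1.35 for let-7a-5p, 1.28 for let-7f-5p, 1.12 for let-7d-5p, 1.08 for let-7e-5p and 0.970 for let-7i-5p. The folds of members with and without a match overlapped, since let-7g-5p, with one, lay above let-7b-5p, without one. A link between match and fold was not tested, and LIN28 was not measured. A match describes letters in this window, not binding.

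Among the 18 other miRNAs with a mean of at least 10000 RPM, the 5 whose log2 ratio lay closest to that of the summed 5p arms (0.38) were miR-191-5p (0.41), miR-21a-5p (0.42), miR-16-5p (0.33), miR-181a-5p (0.15) and miR-148a-3p (0.63). Likeness was measured as the distance between log2 ratios over 2 libraries, which is a single difference per miRNA.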

How the data were processed

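Per the labels' protocols, small RNA was extracted with a miRVana kit, and an Illumina TruSeq kit gave libraries that were size-selected on a gel at 147 bp and sequenced on a MiSeq. The deposited values came from miRanalyzer, per the file headers. Not given in the sources used here: its version and its handling of multi-mapping reads. The build was mm10, per the submitters' processing notes. The authors gave each miRNA as a percent of reads per library, and in a second deposited table the ratio of ADM to BM percent with its log2, each 0 there being replaced by 0.5 read. Columns sum to 99.9% in each library.

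Whole reads were recovered from the smallest step (tolerance 0.001 read). Log2 ratios used a pseudocount of 1 RPM. Shares have exact Clopper-Pearson intervals, and folds exact conditional ones. Ratios of ratios have normal intervals on log2 reads. No molecular identifiers were used as far as stated, so reads are not independent molecules. A single read was worth 1.32 RPM in BM and 1.26 in ADM. Recovery and intervals were tested on simulated data. Python 3.11.15, numpy 2.4.6, pandas 2.3.3, scipy 1.17.1 and matplotlib 3.10.9 were used. Named miRNAs were all family arms, the partner arms, seed mates and the 5 most alike. Members and lists were chosen with earlier results of these data known. Scaling, pseudocount, minimum, threshold and arm choice were varied.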

Additional observations from a re-analysis of the deposited data

How the results depend on the processing

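No paired analysis was possible because each medium had 1 library. The trimmed mean of M values shifted every log2 ratio by -0.10, the median of ratios by 0.06, and leaving miR-22-3p and miR-21a-5p out of the denominators by 0.08. The fold of the summed 5p share, 1.30 as reported, was 1.21, 1.36 and 1.38 under these 3 scalings. Under the first, let-7d-5p and let-7e-5p had log2 ratios of 0.07 and 0.007. Their lower bounds in the main result, 0.101 and 0.029 on the log2 scale, are smaller than the size of that shift (-0.103). Their intervals would thus no longer lie above 1. miR-98-5p had a log2 ratio of 1.09 there and was still called. Its lower bound in the main result, 1.037, exceeds the log2 value of the 2-fold line by less than the same shift. Its interval would thus reach below 2-fold. The log2 ratio of let-7i-5p reversed to 0.020 and 0.037 under the last 2. Instead of 1 member at least 2-fold higher, both gave 3, with let-7g-5p and let-7f-1-3p added to miR-98-5p. No pseudocount gave 2 (let-7f-1-3p added, with 7 and 15 reads) and a 1.5-fold threshold 5, both by construction. No setting gave a member at least 2-fold lower. The log2 ratios of let-7f-5p, let-7c-5p, let-7i-5p, let-7a-5p and let-7b-5p left their counting intervals under all 3 scalings. Those of let-7d-5p, let-7e-5p and let-7g-5p did so under the first and the last. Ratios of single members aside, the other 23 alternatives to the main results stayed within set limits. These were a factor of 1.5 for counts, the counting interval for folds and the spread between hairpins for the arm difference. Among the 23, the median arm difference was 0.37 over all 8 pairs of arms. It was 0.49 with let-7d, let-7e and let-7b alone, an alternative chosen after seeing the data. let-7d is the middle value there and in the main result, so that match arises by construction. Without replicates, the spread between cultures is unknown, and most 3p arms are limited by depth.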
